A study of Homo sapiens with 6 samples.

Results

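The genes described here were the human APOBEC3 cytidine deaminases (APOBEC3A, APOBEC3B, APOBEC3C, APOBEC3D, APOBEC3F, APOBEC3G and APOBEC3H) and the adenosine deaminases ADAR and ADARB1. They were chosen by symbol, with earlier results of these data known. All 9 had a row among the 29889 genes of the deposited table. Their expression was compared in A549, a human lung adenocarcinoma cell line, 48 h after transfection with Lipofectamine 2000 of a plasmid that expresses CELF6 (pIRES-hrGFP-1a-CELF6, called CELF6-OE) or of the empty plasmid (called Control), with 3 replicates per group and 6 libraries in all. CELF6 is an RNA-binding protein, and the comparison asks which transcripts change when it is overexpressed. Both groups received a plasmid and went through transfection, and whether plasmid uptake or the response to transfected DNA was equal between them was not tested. The polyadenylated RNA of whole cultures was sequenced, and the labels and methods name 1 cell line and no clonal selection.

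APOBEC3 enzymes convert cytosine to uracil in single-stranded DNA, and some also in RNA. They restrict retroviruses and retrotransposons, many of them are induced by interferon, and APOBEC3A and APOBEC3B are known for the C-to-T mutations they leave in tumour genomes, lung tumours among them. ADAR and ADARB1 convert adenosine to inosine in double-stranded RNA. ADAR has a long isoform made from an interferon-inducible promoter and a short isoform made constitutively, and its editing of self RNA keeps the RNA sensor MDA5 (gene IFIH1) quiet, while ADARB1 is best known for recoding sites in neuronal transcripts.

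CELF6 itself was counted in every CELF6-OE library and in no Control library, at FPKM (fragments scaled to transcript length and to the mapped fragments of the library) of 270.1, 295 and 172 in CELF6-OE libraries 1, 2 and 3. The third CELF6-OE library therefore held 61.0% of the mean CELF6 level of the other two. Totals on genes ranged from 33748328 to 37920700 counts per library. The epithelial keratins KRT7 and KRT8 were abundant in A549 as labelled, at FPKM of at least 1606 and 1643 in the CELF6-OE libraries, whereas EPCAM, also an epithelial marker, was near an FPKM of 1.

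Of the 9 genes, 5 were lower in CELF6-OE by at least 1.5-fold at an adjusted p under 0.05 (APOBEC3A, APOBEC3B, APOBEC3F, APOBEC3G and APOBEC3H) and 0 were higher, by the quasi-likelihood test of edgeR, with p adjusted by Benjamini-Hochberg over the 15847 genes with enough counts. In the same test 5.82% of all genes were called lower and 1.35% were called higher at these thresholds. Without a fold threshold APOBEC3C joined them, giving 6 lower genes and 0 higher, against 11.5% lower and 6.47% higher among all genes. APOBEC3D, ADAR and ADARB1 did not pass. The count of higher genes was also 0 at an unadjusted p under 0.05 and with DESeq2. The share of all genes at an unadjusted p under 0.05 was not computed, here or for the lists below. It is at least the share at the adjusted p. The median log2 fold change was -1.03 over the 7 APOBEC3 genes and -0.72 over all 9, against 0.01 over all genes tested. All 9 genes passed the filter on low counts, but APOBEC3G and APOBEC3H passed only through their Control libraries. In RNA from whole cultures, less transcript in every cell and loss of transcript from some of the cells cannot be told apart.

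**Figure D1:**
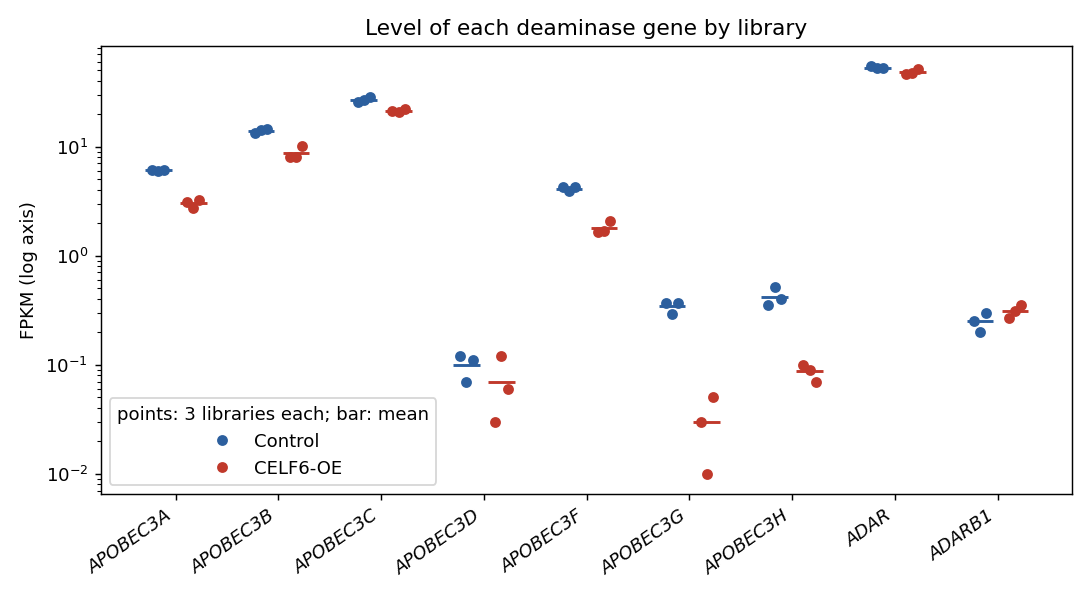
FPKM of the 9 deaminase genes on a log axis, with 1 point per library (Control in blue, CELF6-OE in red, 3 libraries each) and a bar at each group mean. The red points lie below the blue points for 7 genes, and the groups overlap for APOBEC3D and ADARB1.

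The levels of the 9 genes spanned a wide range, which FPKM allows to be compared because it accounts for transcript length. In Control the order of the mean FPKM was ADAR (53.1), APOBEC3C (26.9), APOBEC3B (14.0), APOBEC3A (6.05), APOBEC3F (4.12), APOBEC3H (0.42), APOBEC3G (0.343), ADARB1 (0.25) and APOBEC3D (0.10). Among neighbours in this order, the libraries of APOBEC3H and APOBEC3G overlapped, as did those of APOBEC3G and ADARB1, and the other neighbours were separate. In CELF6-OE the first 5 genes kept their places. The lower end was reordered to ADARB1 (0.31), APOBEC3H (0.0867), APOBEC3D (0.07) and APOBEC3G (0.03), where the libraries of APOBEC3H, APOBEC3D and APOBEC3G overlapped between neighbours. For 7 of the 9 genes every CELF6-OE library was lower than every Control library, on the scale of counts adjusted to library size (CPM) and on the FPKM scale alike, and on the CPM scale this held for 20.0% of all genes tested.

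APOBEC3A and APOBEC3B, the members most often linked to tumour mutations, were both called lower. APOBEC3A had FPKM of 6.07, 5.97 and 6.10 across Control libraries 1, 2 and 3, against 3.10, 2.75 and 3.22 across CELF6-OE libraries 1, 2 and 3. Values of other genes follow the same numbering of libraries. The Control libraries hardly differed from each other, and each stood far above every CELF6-OE library. Its log2 fold change was -1.03 (SE 0.10, 95% interval -1.26 to -0.80, edgeR adjusted p = 7.72e-05), and its level fell by 51.0%. APOBEC3B was the more abundant of the pair, with FPKM of 8.11, 8.01 and 10.1 in CELF6-OE and 13.4, 14.1 and 14.6 in Control. Its groups did not overlap either, and the third CELF6-OE library, at 10.1, was the nearest to Control. The log2 fold change of APOBEC3B was -0.72 (SE 0.10, 95% interval -0.94 to -0.49, edgeR adjusted p = 0.000808), and 5.98% of all genes tested had a log2 fold change as low or lower. The log2 ratio of APOBEC3A to APOBEC3B counts was -1.53 ± 0.13 in CELF6-OE and -1.22 ± 0.06 in Control (SD, n = 3 each), and every CELF6-OE library lay under every Control library (two-sided exact permutation test, p = 0.1, and adjusted p = 0.133 over 36 pairs of the 9 genes). With 3 libraries per group this test cannot give an unadjusted p under 0.1.

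APOBEC3C, a single-domain member with weak antiviral activity, was the most abundant of the family and the least reduced of the members that passed. FPKM was 21.4, 20.6 and 22.1 in CELF6-OE and 25.7, 26.6 and 28.4 in Control. The groups did not overlap, although the gap between the highest CELF6-OE and the lowest Control library was small beside the level. The log2 fold change was -0.36 (SE 0.07, 95% interval -0.52 to -0.20, edgeR adjusted p = 0.00611), which leaves APOBEC3C under the 1.5-fold threshold.

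The double-domain members APOBEC3F and APOBEC3G, cytoplasmic enzymes packaged into retroviral particles, were both called lower. APOBEC3F had FPKM of 1.66, 1.67 and 2.07 in CELF6-OE and 4.23, 3.88 and 4.25 in Control, and the libraries of the groups stood well apart. Its log2 fold change was -1.22 (SE 0.12, 95% interval -1.48 to -0.97, edgeR adjusted p = 5.06e-05), with a residual level 0.428 of that in Control. The Control libraries held 26, 21 and 27 APOBEC3G counts, against 2, 1 and 3 counts for the CELF6-OE libraries. The gene was thus barely expressed in Control, at FPKM between 0.29 and 0.37, and close to undetected in CELF6-OE, at FPKM between 0.01 and 0.05. The log2 fold change of APOBEC3G was -3.47 (SE 0.44, 95% interval -4.44 to -2.50, edgeR adjusted p = 0.000289). At such low counts the estimate depends on the prior count, and it was -2.68 with a prior count of 2. The ratio of Control to CELF6-OE counts, scaled to library totals, was 11.4 with an exact 95% interval of 5.00 to 32.1 that covers counting error only.

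APOBEC3H, a single-domain antiviral member, had 15, 23 and 18 counts in the Control libraries, against 4, 4 and 3 for CELF6-OE. The groups were separate at these low counts. The log2 fold change was -2.24 (SE 0.40, 95% interval -3.11 to -1.36, edgeR adjusted p = 0.00276), and the scaled count ratio of Control to CELF6-OE was 4.71 (exact 95% interval 2.44 to 9.97, counting error only). APOBEC3D, a double-domain member, had 12, 7 and 11 counts in the Control libraries, against 3, 11 and 5 for CELF6-OE, and these overlapped. A difference in APOBEC3D was not detectable at this depth, since its log2 fold change of -0.58 (edgeR adjusted p = 0.437) had a 95% interval from -1.66 to 0.50.

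**Figure D2:**
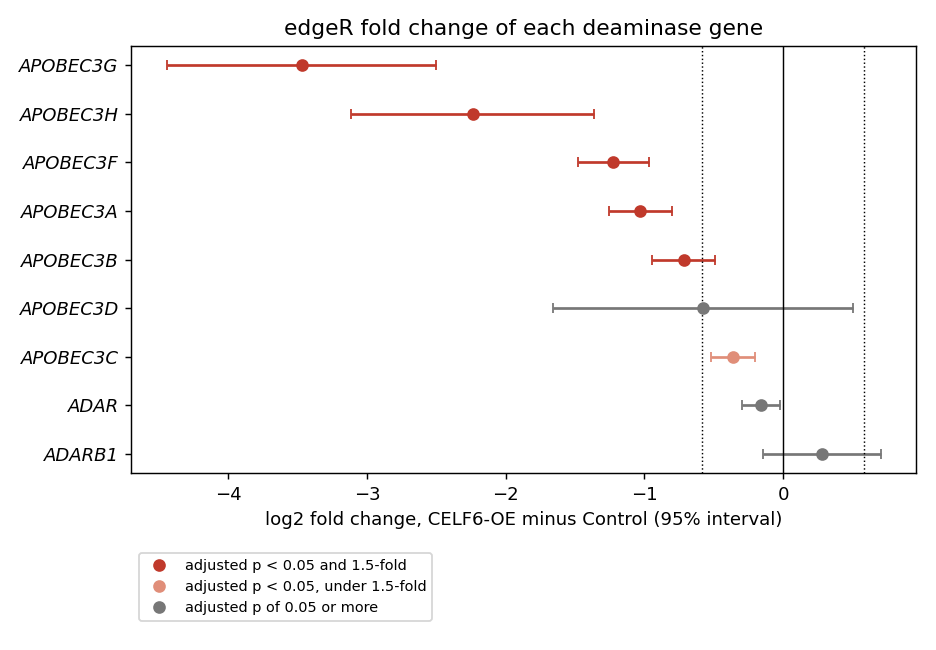
Log2 fold change of each gene (CELF6-OE minus Control, edgeR) with its 95% interval, solid line at 0 and dotted lines at a fold change of 1.5 in each direction. The estimates run from -3.47 for APOBEC3G to 0.28 for ADARB1, and the intervals of ADARB1 and APOBEC3D include 0.

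ADAR, the most abundant of the 9 genes, had FPKM of 46.8, 47.2 and 51.6 in CELF6-OE and 54.5, 52.6 and 52.2 in Control. The groups did not overlap, but the third CELF6-OE library was within 1 FPKM of a Control library. On the count scale the Control libraries held 13909, 13958 and 13858 reads of ADAR, against 11438, 11775 and 12266 for the CELF6-OE libraries. The log2 fold change was -0.16 (SE 0.06, 95% interval -0.30 to -0.02), or 10.5% in size, and the edgeR adjusted p of 0.0979 did not pass although the interval, which is not adjusted for the number of genes, excludes 0. Since gene counts add up all transcripts, the long and the short ADAR isoform could not be separated. ADARB1 had FPKM of 0.27, 0.31 and 0.35 in CELF6-OE and 0.25, 0.20 and 0.30 in Control, with overlapping groups. Its log2 fold change was 0.28 (SE 0.19, 95% interval -0.15 to 0.70, edgeR adjusted p = 0.345), so a decrease of ADARB1 by 1.5-fold lies outside this interval and an increase by 1.5-fold lies inside it. The log2 ratio of APOBEC3B to ADAR counts was -4.31 ± 0.11 in CELF6-OE and -3.75 ± 0.10 in Control, and that of APOBEC3C to ADAR was -2.44 ± 0.05 and -2.24 ± 0.10 (SD, n = 3 each). Neither ratio overlapped between the groups (two-sided exact permutation tests, p = 0.1 and adjusted p = 0.133 for each). Of the 36 pairs 27 did not overlap, the pair of APOBEC3A and APOBEC3B among them. These pairs reuse the same 9 genes, and the share of separate pairs among all genes was not computed. Of the 9 pairs that overlapped, 7 involved APOBEC3D.

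Added over the 7 genes, APOBEC3 expression was 50.2, 51.5 and 54.2 FPKM across the Control libraries, against 34.5, 33.2 and 37.6 FPKM across the CELF6-OE libraries. The sum was 35.1 ± 2.28 in CELF6-OE and 52.0 ± 2.04 in Control (SD, n = 3 each), a difference of 16.8 FPKM or 32.4% of the Control sum (exact permutation test, two-sided, p = 0.1, which 3 against 3 libraries cannot go below). APOBEC3C made up 32.8% of this difference, APOBEC3B 31.4%, APOBEC3A 18.0% and APOBEC3F 13.8%. APOBEC3G and APOBEC3H, which had the lowest fold changes, together with APOBEC3D made up the remaining few percent, and their levels were low in both groups. APOBEC3C was the largest part of the sum, and its share was 62.2%, 61.9% and 58.7% in CELF6-OE and 51.1%, 51.7% and 52.4% in Control. The share of APOBEC3A was the lower one in CELF6-OE, at 8.61% ± 0.365 in CELF6-OE and 11.6% ± 0.42 in Control, as did that of APOBEC3F, at 5.12% ± 0.349 and 7.94% ± 0.453. Each of these shares was separate between the groups (two-sided exact permutation tests, p = 0.1 each). The share of APOBEC3B overlapped between the groups, at 24.8% ± 1.73 and 27.0% ± 0.413 (exact permutation test, p = 0.2).

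**Figure D3:**
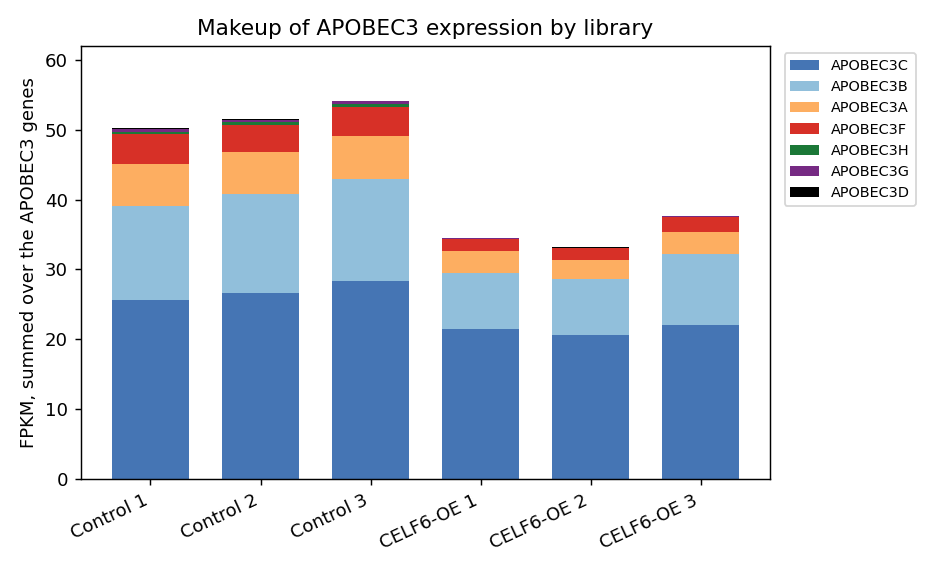
FPKM summed over the 7 APOBEC3 genes in each library, stacked by gene, with the axis starting at 0. The 3 Control bars stand at 50.2 to 54.2 and the 3 CELF6-OE bars at 33.2 to 37.6, and APOBEC3C is the widest band in all 6.

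The size of the decrease was not the same in the 3 CELF6-OE libraries. Relative to the Control mean, the log2 CPM of APOBEC3B was -0.81, -0.85 and -0.51 in CELF6-OE libraries 1, 2 and 3. That of APOBEC3F was -1.33, -1.34 and -1.02, and that of APOBEC3G was -3.53, -4.59 and -2.92. The third library, which had the least CELF6, was the CELF6-OE library nearest to Control for 4 of the 5 genes called lower and for 6 of all 9. The share of all genes tested with this order was not computed, so it is not shown to be particular to the deaminases. ADAR was among them, at -0.20, -0.21 and -0.07. APOBEC3H was not, at -2.12, -2.17 and -2.50. Whether the CELF6 level played a part in this order was not tested, and 3 libraries give no basis for a correlation.

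The 7 APOBEC3 genes lie side by side on the plus strand of chromosome 22 (GRCh38, GENCODE v44), in the order A, B, C, D, F, G and H from 38952741 to 39104067, a span of 151.3 kb. ADAR lies alone on the minus strand of chromosome 1 (154581695 to 154628013) and ADARB1 on the plus strand of chromosome 21 (45073853 to 45226560). Of the 10 nearest protein-coding genes kept in the test (5 on each side of the APOBEC3 cluster), 1 was called lower and 0 higher. Over all genes tested 5.82% were called lower and 1.35% higher. The median log2 fold change of the 10 neighbours of the cluster was -0.08. The called neighbour was GTPBP1, at -0.62 (edgeR adjusted p = 0.000307) and 214 kb from the cluster. The closest neighbour, CBX7 at 16.1 kb, was lower without reaching 1.5-fold, at -0.55 (edgeR adjusted p = 0.0159), while CBX6, the closest on the other side at 80.5 kb, was higher at 0.25 (edgeR adjusted p = 0.018). The 2 CBX genes, which encode Polycomb subunits, were named after their values were seen. Of the 10 neighbours of ADAR 0 were called by edgeR or DESeq2, with 4 lower and 1 higher at an unadjusted p under 0.05. Of those of ADARB1 1 was called, the integrin gene ITGB2 at -1.02 (edgeR adjusted p = 0.0241). Without a fold threshold, 4 of the 10 neighbours of ADARB1 were lower at the adjusted p and 0 higher. Of those of ADAR, 1 was lower and 1 higher. Among all genes tested the shares were 11.5% lower and 6.47% higher.

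**Figure D4:**
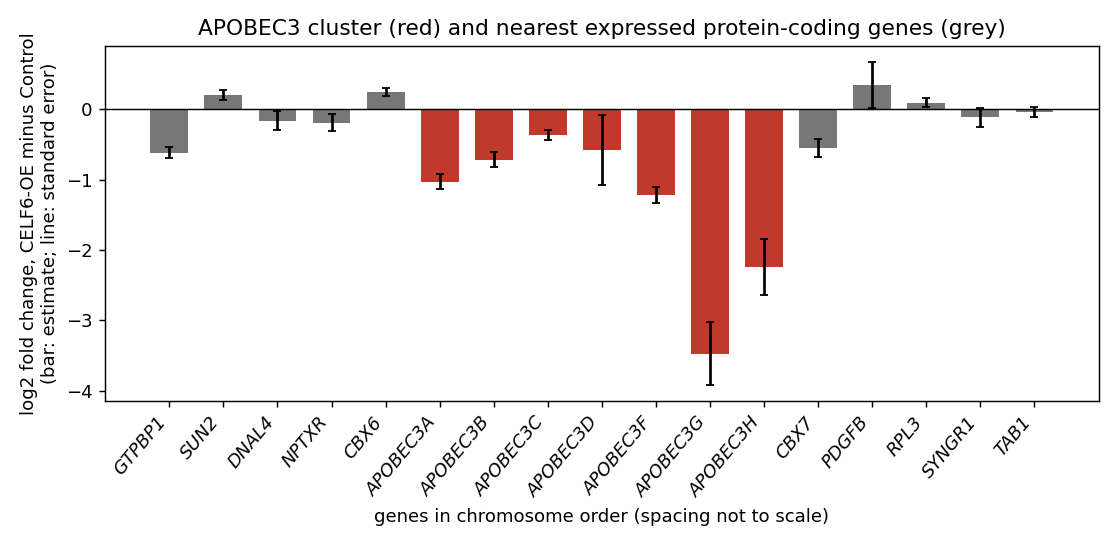
Log2 fold change (bar) and its standard error (line) of the 7 APOBEC3 genes (red) and of the 5 nearest expressed protein-coding genes on each side (grey), in chromosome order. The red bars run from -0.36 to -3.47 and the grey bars from -0.62 to 0.34.

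Neighbouring APOBEC3 genes arose by duplication and share sequence, so reads can be shared or lost when only uniquely placed reads are counted. Among the GENCODE transcripts of the 9 genes, the portion of 150-base stretches also present in a transcript of another of the 9 was 4.14% for APOBEC3A, 5.72% for APOBEC3B, 4.81% for APOBEC3D, 3.75% for APOBEC3F and 2.15% for APOBEC3G. It was 0 for APOBEC3C, APOBEC3H, ADAR and ADARB1. With 50-base stretches APOBEC3B reached 26.9% and APOBEC3A 16.1%. The levels of the genes with shared stretches are therefore less certain than those of the others, and a split of reads between APOBEC3A and APOBEC3B would bear on the ratio given above.

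Promoter sequence from RefSeq (GRCh38.p14) was at hand for 3 of the 9 genes, in 8 windows of 300 bases around annotated starts. APOBEC3H had 1 window, ADAR 3 and ADARB1 4. The 250 bases before the start are shown for APOBEC3H, a gene that was called lower, and for an upstream and a downstream start of ADAR, whose total did not pass. They are written 5′ to 3′ on the strand of the gene, with TATAAA or its reverse complement TTTATA in capitals.
APOBEC3H, chr22:39096994-39097243, plus strand: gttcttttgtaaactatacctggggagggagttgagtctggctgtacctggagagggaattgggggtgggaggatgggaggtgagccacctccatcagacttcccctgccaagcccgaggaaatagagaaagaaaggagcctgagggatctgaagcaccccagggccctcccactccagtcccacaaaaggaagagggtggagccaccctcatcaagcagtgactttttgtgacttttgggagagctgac
ADAR upstream start, chr1:154627998-154628247, minus strand: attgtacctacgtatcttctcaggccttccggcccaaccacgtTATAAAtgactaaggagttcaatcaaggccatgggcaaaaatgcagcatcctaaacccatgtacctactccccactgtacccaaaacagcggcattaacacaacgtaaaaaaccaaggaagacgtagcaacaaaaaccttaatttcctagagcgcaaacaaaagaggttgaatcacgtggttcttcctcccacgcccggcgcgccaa
ADAR downstream start, chr1:154608798-154609047, minus strand: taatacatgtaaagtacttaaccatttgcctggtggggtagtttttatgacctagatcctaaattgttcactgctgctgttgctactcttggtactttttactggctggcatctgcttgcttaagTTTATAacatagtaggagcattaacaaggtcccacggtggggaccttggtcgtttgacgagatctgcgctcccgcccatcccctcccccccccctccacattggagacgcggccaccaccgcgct
The windows were searched on both strands for the interferon-stimulated response element written as GAAANNGAAA, for the interferon-gamma activated site written as TTCNNNGAA, and for TATAAA. None of the 8 windows held either of the first 2 motifs, which were found in 3.57% and 7.66% of 35116 windows of all genes. TATAAA was found in the 3 windows of ADAR, and in 11.5% of all windows. Of these 3 windows 2 overlap and hold the same site, so they are not separate matches. TATAAA or its reverse complement stood 207 bases before the upstream start and 125 bases before the downstream start shown. A missing match says only that these letters are not in these windows.

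Among the relatives of these genes, no other nucleic acid deaminase passed the test. The tRNA adenosine deaminases ADAT1, ADAT2 and ADAT3 were the 3 of 6 listed relatives with a row that were kept in the test, and 0 were called by edgeR or DESeq2, although 2 were higher at an unadjusted p under 0.05. Their median log2 fold change was 0.27, with ADAT3 at 0.41 (edgeR adjusted p = 0.0601). APOBEC1 and ADARB2 had 0 to 4 counts per library. Of the deaminases of free nucleosides and nucleotides, 8 were tested, among them CDA and ADA, and 0 were called by either tool, with 1 higher at an unadjusted p under 0.05, a median of 0.00 and a range from -0.15 to 0.16. By edgeR, 5.82% of all genes tested were called lower and 1.35% higher. Lists this short can hold 0 called genes at those shares.

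The partners of the deaminases and the repair enzymes that follow them were not called either. Their lists are also short beside the shares called over all genes tested, 5.82% lower and 1.35% higher, so 0 called genes does not set them apart. Of 12 RNA editing cofactors and ADAR regulators tested, 0 were called by edgeR or DESeq2, with 1 lower and 4 higher at an unadjusted p under 0.05. RBM47, a cofactor of APOBEC1, was lower without reaching 1.5-fold at -0.32 (edgeR adjusted p = 0.0365). TNPO1, an importin that carries ADAR to the nucleus, was higher at 0.35 (edgeR adjusted p = 0.029). Both were named because they passed the adjusted p without a fold threshold. Of 15 genes that repair uracil in DNA or mismatches, 0 were called by either tool, and the median was 0.10. At an unadjusted p under 0.05, 5 of them were higher and 0 lower. Among all genes, 6.47% were higher already at the adjusted p. UNG, the glycosylase that removes the uracil APOBEC3 enzymes leave, was higher without reaching 1.5-fold, at FPKM of 34.9, 36.1 and 36.3 across the Control libraries, against 45.9, 47.3 and 44.9 for CELF6-OE, and a log2 fold change of 0.33 (edgeR adjusted p = 0.00398). TDG, a thymine and uracil glycosylase, was at 0.24 (edgeR adjusted p = 0.04). UNG and TDG were named on the same ground.

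Sensors of double-stranded RNA, the structure ADAR edits, were lower as a list. Of 12 genes, 9 were called lower and 0 higher, while 5.82% of all genes tested were called lower. The median log2 fold change of the 12 was -1.18, against 0.01 over all genes tested. The lowest 4 were ZBP1 (-3.31), DHX58 (-2.45), OAS2 (-2.25) and OASL (-2.11). ZBP1 binds left-handed double-stranded nucleic acid, DHX58 is a relative of MDA5, OAS2 is an oligoadenylate synthetase, and OASL belongs to the same gene family. The kinase EIF2AK2, at -0.17 (edgeR adjusted p = 0.172), and the adaptor MAVS, at 0.18 (edgeR adjusted p = 0.0559), did not pass. ADAR was thus closer to EIF2AK2 and MAVS in size of change than to the 9 called sensors, a comparison made after the values were seen.

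ADAR is 1 of the genes mutated in Aicardi-Goutières syndrome, an inherited interferon disease. Of the other 7 such genes, 3 were called lower, IFIH1 (-1.27), which is also in the sensor list, the DNA exonuclease TREX1 (-1.23) and the dNTP hydrolase SAMHD1 (-0.75). The 3 subunits of ribonuclease H2 and LSM11 were not called, and the median of the list was -0.06. Of 18 tested factors that act on the transcription of APOBEC3 genes or ADAR, 3 were called lower, among them IRF1 (-1.09) and STAT2 (-1.01). The median of these factors was 0.02. For both lists, the share called lower among all genes tested was 5.82%. NFKB2 (-0.47) passed the adjusted p but not 1.5-fold. IRF9, a partner of STAT2, had 0 to 2 counts per library and was not tested.

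**Figure D5:**
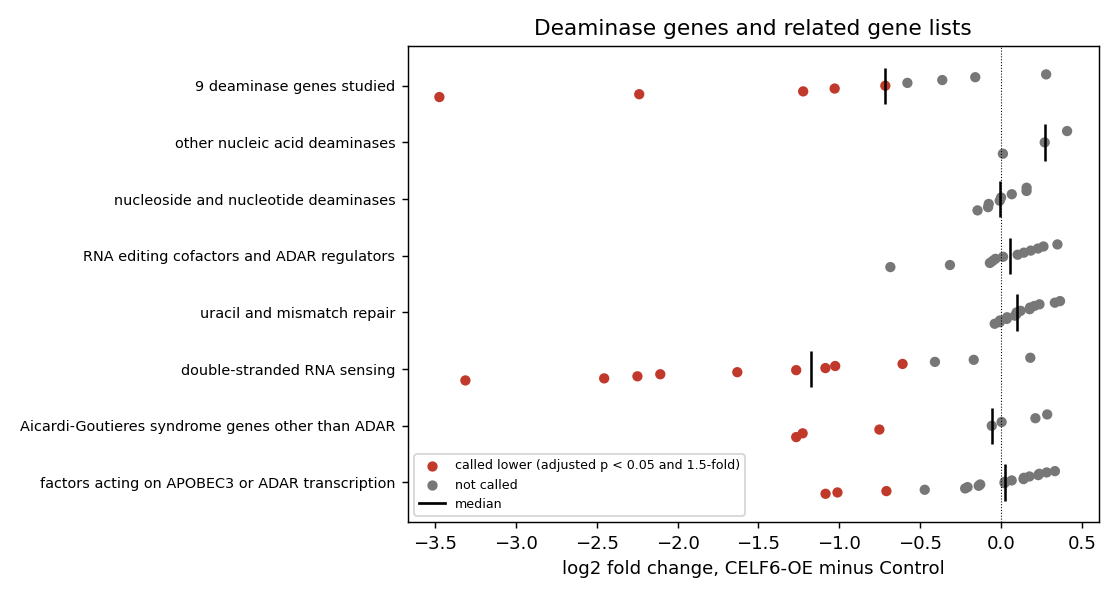
Log2 fold change (CELF6-OE minus Control) of each tested gene of the 9 deaminase genes and of 7 related lists, with called genes in red and the list median as a black line. Called genes appear among the 9 deaminases and in the lists of RNA sensors, Aicardi-Goutières genes and transcription factors, and the other 4 lists hold none.

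Several APOBEC3 genes are expressed mainly in leukocytes, so leukocyte markers were looked up as well. Of 15 such markers 12 had a row and 4 were kept in the test. PTPRC, which marks all leukocytes, had 0 counts in 5 libraries and 2 in the other, and MS4A1 and CD3G had at most 1 count in any library. The markers summed to FPKM between 4.16 and 4.71 in the Control libraries, against 4.35 to 5.72 for CELF6-OE, most of it CD14. ITGAX was called lower, at -0.69 (edgeR adjusted p = 0.0163). Of the 6 epithelial markers 1 was called lower, the cadherin CDH1 at -1.62 (edgeR adjusted p = 0.000105). Without a fold threshold 4 of the 6 were lower and 0 higher, against 11.5% lower and 6.47% higher among all genes tested. KRT8 was at -0.47, KRT18 at -0.36 and KRT19 at -0.22, and the median of the list was -0.38. The part of this difference in the deaminase results was not tested.

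Among the genes whose log2 CPM followed that of APOBEC3B most closely over the 6 libraries were USP11 (Pearson r = 0.9995), HIP1R (0.9992), TRIM26 (0.999) and PARP10 (0.9986). For ADAR they were FES (0.9965), SULT2B1 (0.9959), ARHGEF6 (0.9952), PDIA5 (0.9946) and GPR153 (0.9943). APOBEC3B itself followed APOBEC3F at 0.982 and ADAR at 0.969, and ADARB1 at -0.407. These are descriptions over 6 points that share libraries and fall into 2 groups, and any gene that differs between the groups gives a high value.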

How the data were processed

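RNA of 3 CELF6-OE and 3 Control cultures of A549 was sequenced. Per the methods, the authors used FASTX-Toolkit for trimming and TopHat2 for alignment to GRCh38, and they kept uniquely placed reads for the count of each gene. The counter, the annotation release and whether counting used strand are not given in the sources used here, so reads of antisense transcripts may be included. The authors deposited raw counts and FPKM rounded to 2 decimals. No column was left out.

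Counts were scaled with TMM and tested with the quasi-likelihood test of edgeR 4.0.16 (R 4.3.3) on the 15847 genes kept by filterByExpr (minimum count 10), with Benjamini-Hochberg adjustment. A gene was called at 1.5-fold or more with an adjusted p under 0.05. The prior count of log2 fold changes was 0.125, and log2 ratios of 2 genes a pseudocount of 0.5. The biological coefficient of variation was 8.62%. FPKM means, sums and shares were tested with exact permutation tests (SciPy 1.17.1). The procedure was tested on simulated counts, with changes given only to genes with a mean above 1 CPM. Changes at the lower counts of APOBEC3D, APOBEC3G and APOBEC3H were therefore not simulated. Of the deposited identifiers 29032 were found in GENCODE v44. No pair of libraries in a group was a duplicate.

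The members, lists and tests were chosen with earlier results of these data known. Named were all 9 members, at most 4 called genes of each list or set of neighbours with the largest change, and the 5 genes most like APOBEC3B and ADAR, with exceptions marked where they occur. Alternatives were other scalings, filters, tests (DESeq2 1.42.0, limma 3.58.1), thresholds and a replicate block, and leaving out each library. APOBEC3B-AS1 and the isoforms of ADAR were not analysed here. Some genes of the lists are counted but not reported here by name.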

Additional observations from a re-analysis of the deposited data

How the results depend on the processing

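Of the 9 deaminase genes, 5 were called lower. The number was 3 with a minimum of 1 CPM in 3 libraries, where APOBEC3D, APOBEC3G and APOBEC3H were no longer tested, and 3 with limma on log2(FPKM + 1), with or without a filter. In the latter APOBEC3G (log2 fold change -0.38, adjusted p = 0.00386 with the filter and 0.00698 without) and APOBEC3H (-0.38, adjusted p = 0.00638 and 0.0141) missed the fold threshold, since a pseudocount of 1 exceeds their levels. In the other settings the number was 4 to 6, and 5 without each library in turn. DESeq2 gave 4 and no adjusted p for APOBEC3D and APOBEC3H. None was called higher in any setting. Over 21 settings APOBEC3A, APOBEC3B, APOBEC3C and APOBEC3F kept an adjusted p under 0.05, at most 0.043 for APOBEC3C, and ADAR never had one, at 0.0674 to 0.291, nor did ADARB1, at 0.133 to 0.722. The log2 ratio of summed APOBEC3 FPKM was -0.57 and lay between -0.62 and -0.53 without each library in turn. Without APOBEC3C, an alternative chosen after seeing the data, it was -0.87. With 10 neighbours on each side of the APOBEC3 cluster, 2 were called in place of 1. Of the RNA sensors 8 or 9 were called lower in every setting. Replicate numbers did not pair the libraries, since libraries with the same number had correlations of -0.07 to -0.01 between their deviations from the group means, and with the replicate number as a block 5 of the 9 genes were again called lower. Depth limits APOBEC3D, APOBEC3G and APOBEC3H, which had at most 27 counts in a library.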
